A study of Mus musculus with 4 samples.

Results

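The genes described here are 4 ligands of the VEGF family (Vegfa, Vegfb, Vegfc and Pgf), the receptors Flt1 and Kdr, the coreceptors Nrp1 and Nrp2, the angiopoietin Angpt1 and the angiopoietin-like gene Angptl4. Every probe set that the platform annotation gives to one of these symbols was taken, which gave 16 probe sets of 10 genes, among 20380 probe sets of 12393 genes with a single symbol. The genes were selected on the signal difference between the R150C and WT lines in these same arrays, in that the set was proposed with that difference known for Vegfa. Differences between the lines are therefore given as a description, with no test.

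All 4 samples were mouse CH10T1/2 cells, a fibroblast line of mesenchymal origin, each measured once on an Affymetrix Mouse Genome 430A 2.0 array. The cells carried a stably transfected PTHR1, the receptor for parathyroid hormone and PTHrP, either as the R150C variant found in enchondromas (benign cartilage tumours) or as the wild type (WT). After a night without serum they were given PTHrP at 1e-07 M or carrier for 1 h. The 4 groups were R150C with PTHrP, R150C with carrier, WT with PTHrP and WT control, with 1 array each; the last sample is called control in its description alone, its own treatment protocol mentions no carrier, and the series text names carrier for the untreated arm. Each receptor is represented by 1 transfected line, so receptor and line cannot be told apart, and no value below has a replicate error. For Pth1r itself the signal was 3.2 and 3.4 in the R150C line (PTHrP, carrier) against 3.3 and 3.9 in the WT line (PTHrP, control). All 4 values lie within the background range given below, so the lines are not compared on them. Whether these probes detect the transfected cDNA was not tested.

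VEGF ligands are secreted dimers that bind receptor tyrosine kinases, chiefly on endothelial cells, and drive the growth and permeability of blood vessels. Vegfa acts through Kdr (VEGFR2), the main signalling receptor, while Flt1 (VEGFR1) binds it tightly with weak kinase activity, and a secreted form of Flt1 acts as a decoy. Neuropilins hold certain VEGF isoforms next to Kdr and also bind class 3 semaphorins. In the growth plate, hypertrophic chondrocytes release Vegfa, which draws vessels into cartilage as it is replaced by bone, and fibroblasts are a common source of the ligand.

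Each probe set has 1 linear fluorescence intensity per array in the deposited table, its signal. For differences, 16 was added to the signal, log2 was taken, and every array was centred on the median of the genes that pass a filter on low values; on this scale the change of dim genes is understated. The filter kept 6197 genes whose brightest probe set lay, on the mean of the 4 arrays, at or above the median over genes, a level that turns back to a signal of 62.6. Of the 10 members, 6 passed it (Vegfa, Vegfb, Flt1, Nrp1, Nrp2 and Angptl4) and 4 did not (Vegfc, Pgf, Kdr and Angpt1). The table has no detection calls, so 27 probe sets for Bacillus transcripts served as a background: they read between 0.2 and 26.4 over the 4 arrays. A difference of 2 arrays had a spread of 0.25 (SD, log2) over the kept genes and 0.38 over the genes below the filter, estimated from the departure from additivity of line and treatment.

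Of 13 fibroblast and mesenchymal markers 12 were above the filter, with Col1a1 between 4440.1 and 6197.4. Endothelial markers were dim: 2 of 17 passed the filter (Eng and S1pr1), 7 of 17 lay on every array at or below that array's own highest Bacillus probe set (24.6 and 20.5 in the R150C line with PTHrP and carrier, 26.4 and 19.5 in the WT line with PTHrP and in control medium), the summed signal of the 17 was 502.7 and 577.2 in the R150C line (PTHrP, carrier) against 465.8 and 536.9 in the WT line (PTHrP, control), and none was at 0. Pecam1 read 4.3 to 18.7 and Cdh5 14.7 to 21.1, close to the floor. The WT control array stood apart in the actin control probe sets, whose ratio of 3' to 5' signal reflects RNA and labelling quality, with 1.42 there against 2.13 to 2.39 in the others, and its Gapdh ratio was 0.845 against 0.991 to 1.21. The comparison of the lines under PTHrP does not use that array and is given beside each value in control medium.

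Promoter sequence is shown for Vegfa, the member with the largest line difference, and for Flt1, which alone among the 8 members with a promoter entry held the cAMP response element, the motif bound by CREB downstream of Gs-coupled receptors such as PTHR1. RefSeq windows (GRCm38.p6) of 250 bases before the annotated start were matched for 8 of 10 members; Angpt1 and Angptl4 were not matched. Both sequences run 5′ to 3′ on the gene's strand, with the GC box GGGCGG in capitals for Vegfa (chr17:46032378-46032627, minus strand, the first of 2 annotated starts) and the cAMP response element TGACGTCA in capitals for Flt1 (chr5:147726012-147726261, minus strand).
Vegfa: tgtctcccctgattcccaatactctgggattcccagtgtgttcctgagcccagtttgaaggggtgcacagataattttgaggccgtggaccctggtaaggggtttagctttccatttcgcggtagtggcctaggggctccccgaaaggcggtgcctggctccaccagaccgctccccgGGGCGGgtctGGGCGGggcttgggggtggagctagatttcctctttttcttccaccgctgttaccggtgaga
Flt1: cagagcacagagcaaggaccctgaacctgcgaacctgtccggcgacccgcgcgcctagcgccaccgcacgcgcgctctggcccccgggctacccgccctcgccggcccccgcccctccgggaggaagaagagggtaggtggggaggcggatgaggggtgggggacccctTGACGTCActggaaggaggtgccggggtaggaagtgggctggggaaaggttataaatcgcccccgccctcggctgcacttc

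In the Vegfa window 2 copies of the GC box, the binding letters of Sp1 family factors, begin 72 and 62 bases before the start. Searched on both strands, GGGCGG was found in 9 of the 10 member windows, among them both starts of Vegfa and 1 of 2 starts of Pgf, and in 32.7% of all 32851 windows. The cAMP response element of Flt1 begins 81 bases before its start, and 1.55% of all windows hold these letters. A core of the hypoxia response element, ACGTG or GCGTG, was found in 7 of 10 member windows, not in the first window of Vegfa, and in 38.6% of all windows. The AP-1 motif TGANTCA was found in 0 of 10 member windows and in 6.75% of all windows. Among the matches in member windows 1 pair overlapped, a pair of GC boxes in Nrp2. These matches describe letters in the windows and say nothing about binding.

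The comparison of the lines asks which angiogenic transcripts differ between cells with the variant and cells with the normal receptor. Vegfa, the main angiogenic ligand, was far brighter in the R150C line: the probe set that stands for the gene (1420909_at) read 555.5 with PTHrP and 598.1 with carrier in the R150C line, against 71.7 with PTHrP and 106.0 in control medium in the WT line. Both R150C arrays lay above both WT arrays, and the signal in the R150C line was 7.75 times that of the WT line under PTHrP and 5.64 times in control medium. On the log2 scale the difference was 2.68 under PTHrP and 2.30 in control medium. A second probe set of Vegfa (1451959_a_at, whose suffix marks probes shared by transcript variants of a gene) read 275.2 and 362.7 in the R150C line (PTHrP, carrier) against 74.9 and 133.8 in the WT line (PTHrP, control). It put the R150C line higher in both media too, by 1.66 under PTHrP and 1.31 in control medium, so the probe sets of the gene give the same direction and different sizes. In RNA from whole cultures, a larger share of cells with the transcript and more RNA per cell cannot be told apart.

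**Figure D1:**
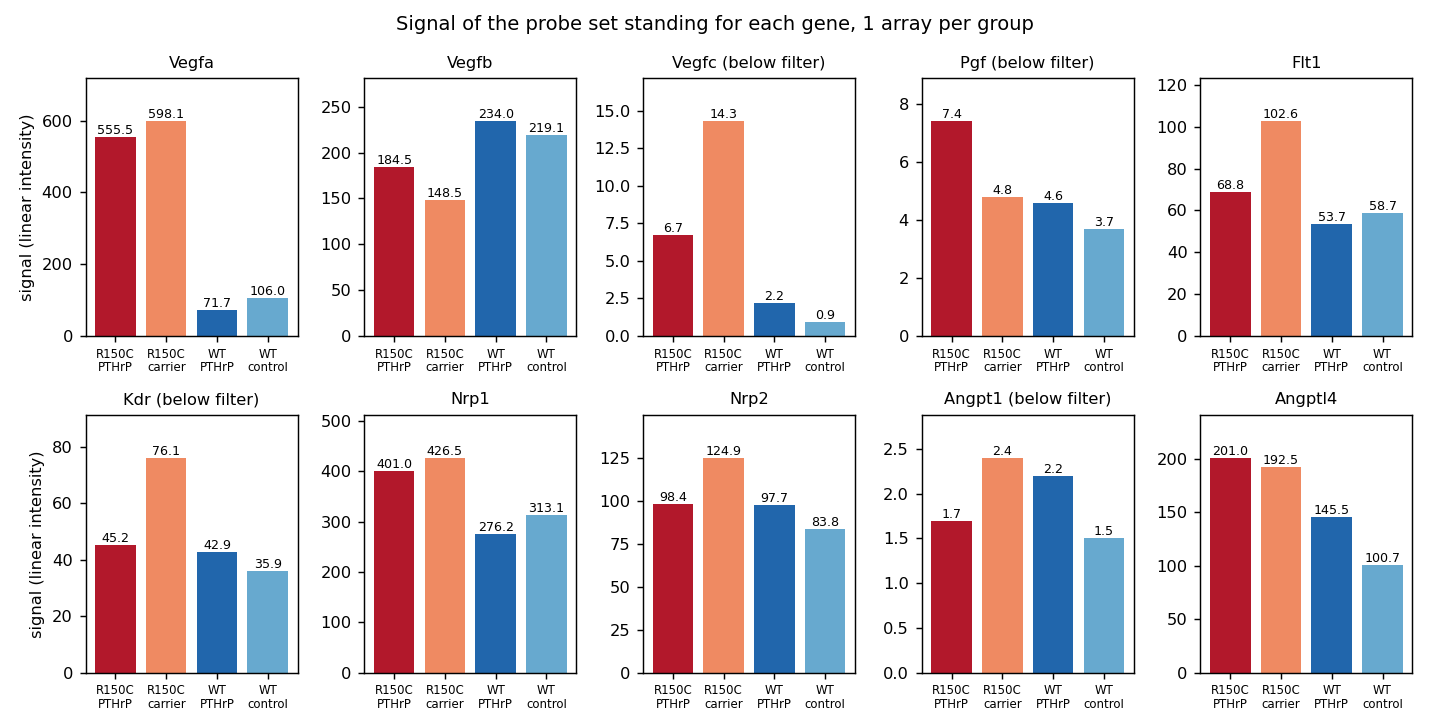
Signal (linear intensity, vertical axis from 0, a scale of its own in each panel) of the probe set that stands for each of the 10 genes, as 1 bar for each array (horizontal axis: R150C PTHrP, R150C carrier, WT PTHrP, WT control). Vegfa reads 555.5 and 598.1 in the R150C line against 71.7 and 106.0 in the WT line; Vegfc, Pgf and Angpt1 do not exceed 14.3 on any array.

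Vegfb, a ligand of Flt1 linked more to metabolism of muscle and fat than to vessel growth, had the opposite order. It read 184.5 and 148.5 in the R150C line (PTHrP, carrier) against 234.0 and 219.1 in the WT line (PTHrP, control), so both R150C arrays lay below both WT arrays. The differences were -0.34 under PTHrP and -0.55 in control medium, well short of 2-fold.

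The remaining ligands were at the floor of the array. Vegfc, the ligand that directs lymphatic growth through Flt4, read 6.7 and 14.3 in the R150C line (PTHrP, carrier) against 2.2 and 0.9 in the WT line (PTHrP, control). All 4 values are within the range of the Bacillus probe sets. Its differences of 0.30 and 0.81 (PTHrP, control medium) became 1.24 and 2.98 with a pseudocount of 1. Pgf, the placental growth factor that binds Flt1, read 7.4 and 4.8 in the R150C line against 4.6 and 3.7 in the WT line, also within the background.

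Of the receptors, Flt1 was measured by 3 probe sets. The brightest (1451756_at) read 68.8 and 102.6 in the R150C line (PTHrP, carrier) against 53.7 and 58.7 in the WT line (PTHrP, control), differences of 0.26 and 0.64 (PTHrP, control medium). The R150C arrays were above the WT arrays, with the R150C carrier array standing highest. The other probe sets, both below the filter, differed less: 1419300_at by 0.07 and 0.18, and 1454037_a_at by 0.06 and 0.32, in the same order of media.

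Kdr, the kinase that carries most VEGF signalling in endothelium, read 45.2 and 76.1 in the R150C line against 42.9 and 35.9 in the WT line (PTHrP and control within each). The carrier array of the R150C line stood alone, and the remaining 3 arrays lay between 35.9 and 45.2. The line difference was 0.03 under PTHrP and 0.80 in control medium. Kdr lay below the filter, as did most of the 17 endothelial markers, so these are low readings. They are above the highest Bacillus reading of 26.4 on every array.

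The coreceptor Nrp1 was measured by 3 probe sets, all above the filter. The brightest (1448943_at) read 401.0 and 426.5 in the R150C line (PTHrP, carrier) against 276.2 and 313.1 in the WT line (PTHrP, control), with no overlap of the lines and differences of 0.49 and 0.40 (PTHrP, control medium). Its other probe sets gave smaller values, 0.06 and 0.20 for 1418084_at and 0.18 and -0.14 for 1448944_at. The probe sets of Nrp1 thus disagree on the sign in control medium and on the size in both media.

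Nrp2, the coreceptor more tied to Vegfc and lymphatic vessels, read 98.4 and 124.9 in the R150C line (PTHrP, carrier) against 97.7 and 83.8 in the WT line (PTHrP, control). The lines were level under PTHrP (-0.01) and differed by 0.47 in control medium. As for Kdr and the brightest probe set of Flt1, the R150C carrier array held the highest reading of the 4.

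Angptl4 is a secreted inhibitor of lipoprotein lipase that is induced by fasting, PPAR ligands and hypoxia and also acts on vessels. By its brighter probe set it ran higher in the R150C line. Its probe set 1417130_s_at read 201.0 and 192.5 in the R150C line (PTHrP, carrier) against 145.5 and 100.7 in the WT line (PTHrP, control), without overlap, and differed by 0.41 and 0.81 (PTHrP, control medium). The suffix marks probes that can match transcripts of several genes. The second probe set (1453410_at) read 3.5 to 8.7, within the background, and differed by -0.33 and 0.11 (PTHrP, control medium). With the mean of both probe sets the gene differed by 0.05 and 0.53. Angpt1, the ligand that activates the endothelial receptor Tek (Tie2), read 1.7 and 2.4 in the R150C line and 2.2 and 1.5 in the WT line, at the floor on every array.

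**Figure D2:**
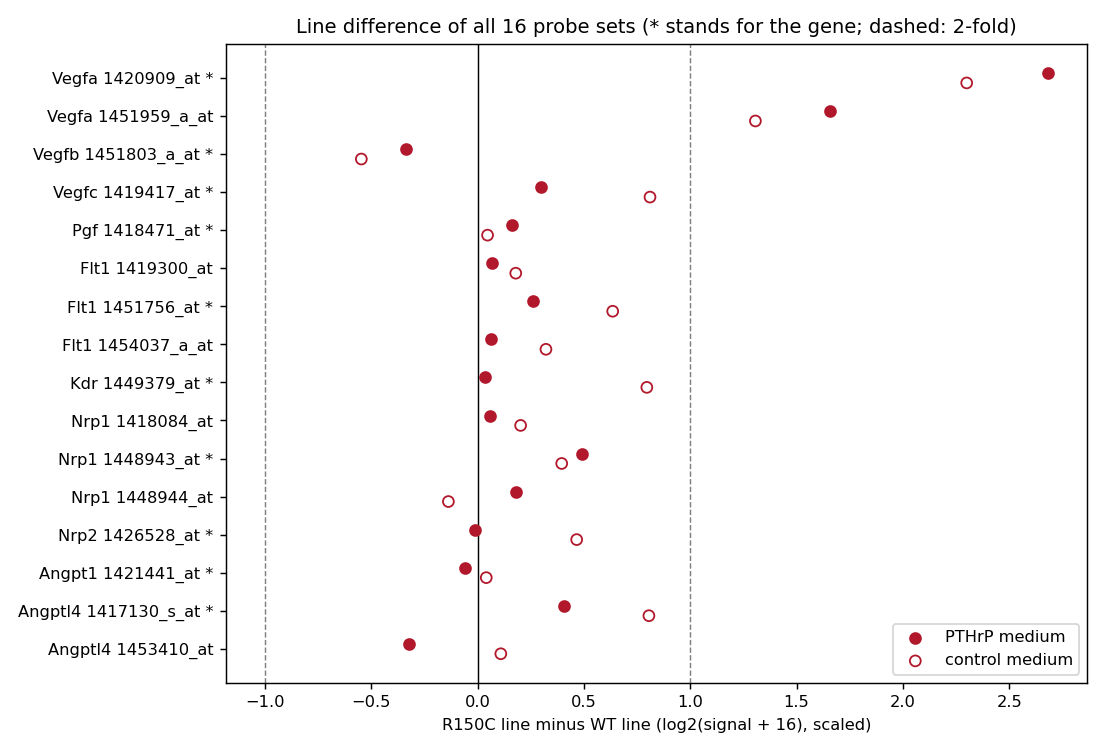
R150C line minus WT line for all 16 probe sets (horizontal axis, scaled log2(signal + 16); rows are probe sets, an asterisk marks the one that stands for its gene), with filled points for PTHrP medium and open points for control medium and dashed lines at 2-fold. The 2 Vegfa probe sets alone pass 2-fold, at 2.68 and 1.66 under PTHrP and 2.30 and 1.31 in control medium.

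At 2-fold, 1 of 10 members (Vegfa) was higher in the R150C line under PTHrP and 1 of 10 (Vegfa again) in control medium, where 1.93% and 1.65% of all 12393 genes were. Higher in both media were 0.839% of all genes. At least 2-fold lower were 0 of 10 members in either medium, against 1.11% of all genes under PTHrP and 1.31% in control medium. The median of the 10 members was 0.21 under PTHrP and 0.55 in control medium, beside -0.04 and -0.03 over all genes. Because the set was chosen with this contrast known, nothing is read from these counts. Of the 16 probe sets 12 had a positive difference under PTHrP and 14 in control medium. Of the 9 probe sets above the filter 7 were positive in each medium, and 4 of the 16 never exceeded the highest Bacillus probe set of an array. The share of all probe sets with a positive difference was not counted, and these signs too are only described. All probe sets of a gene had the same sign in 3 of 4 genes with several probe sets in each medium.

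**Figure D3:**
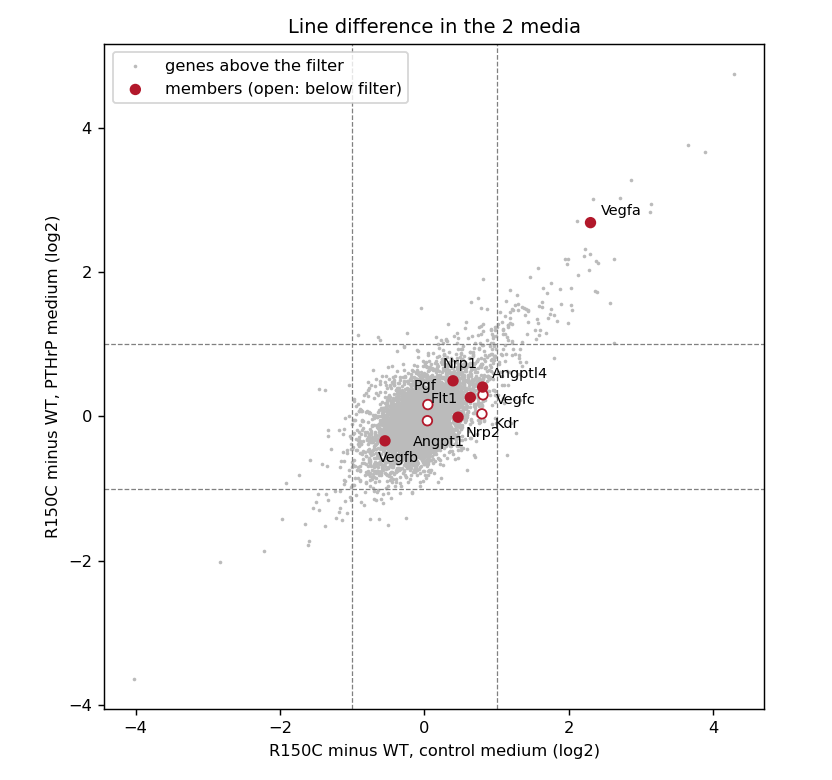
R150C minus WT in control medium (horizontal axis) against the same difference under PTHrP (vertical axis, both log2), with a grey point for each of the 6197 kept genes, red points for members above the filter and open red points for members below it. Vegfa lies at 2.30 and 2.68, and the other members lie inside the dashed 2-fold lines.

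The kept genes whose pattern over the 4 arrays was nearest to that of Vegfa, by Euclidean distance of values centred on each gene's own mean, were Myc (distance 0.05), Smad7 (0.17), Sema7a (0.26), Pvr (0.30) and Clcf1 (0.31), out of 6196. Myc, for one, read 473.0 and 529.9 in the R150C line (PTHrP, carrier) against 58.8 and 90.7 in the WT line (PTHrP, control). The likeness covers 4 arrays and is dominated by the line difference.

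The comparison of PTHrP with control asks what 1 h of ligand does to these transcripts. No member reached 2-fold in either line: 0 of 10 were higher and 0 of 10 lower, where 0.347% of all genes were higher and 0.75% lower in the R150C line, and 0.331% higher and 1.15% lower in the WT line. The median of the members was -0.10 in the R150C line and 0.06 in the WT line, beside -0.04 and -0.02 over all genes.

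**Figure D4:**
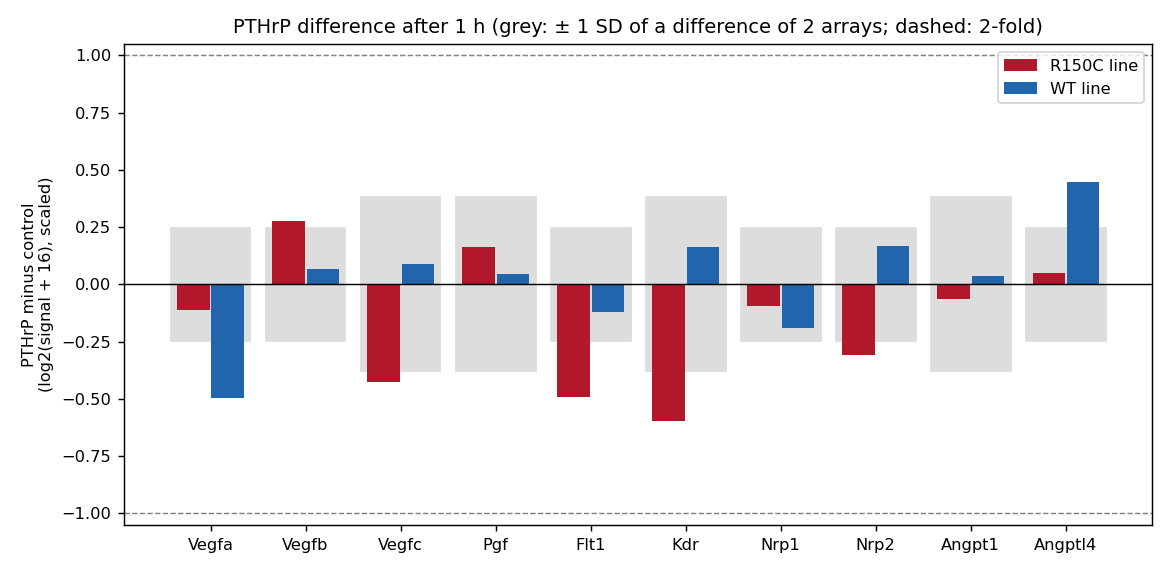
PTHrP minus control after 1 h (vertical axis, scaled log2(signal + 16)) for the 10 genes, with a red bar for the R150C line and a blue bar for the WT line. Grey boxes span 1 SD of a difference of 2 arrays on each side of 0 (0.25 for members above the filter, 0.38 below it), and all bars lie between the dashed 2-fold lines, the longest being Kdr in the R150C line at -0.60.

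Vegfa read lower with PTHrP than without it in both lines and by both probe sets. The differences were -0.11 and -0.39 in the R150C line (1420909_at, 1451959_a_at) and -0.50 and -0.74 in the WT line. The value of -0.11 lies within the spread (SD 0.25) of a difference of 2 arrays. Both probe sets read the same RNA, so their agreement is not a repeat. In the WT line the signal of the second probe set was 74.9 with PTHrP against 133.8 in control medium. Every PTHrP difference in the WT line rests on the WT control array, whose actin and Gapdh ratios are given above; the part of RNA quality in these differences was not tested.

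Flt1 read lower with PTHrP in the R150C line by its brightest probe set (-0.49) and by 1454037_a_at (-0.48), but not by 1419300_at (0.03). In the WT line the values of the same probe sets were -0.12, -0.23 and 0.14. Kdr differed by -0.60 in the R150C line and 0.16 in the WT line, and Nrp2 by -0.31 and 0.17. Angptl4 differed by 0.05 in the R150C line and 0.45 in the WT line, where it read 145.5 with PTHrP against 100.7 in control medium. Vegfb differed by 0.28 and 0.07 in the R150C and WT lines. The probe sets of Nrp1 did not share a sign: 1448943_at differed by -0.09 in the R150C line and -0.19 in the WT line, 1418084_at by -0.03 and 0.12, and 1448944_at by 0.40 and 0.08.

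A PTHrP effect common to both lines was tested with limma, fitting receptor and treatment as additive terms to all 6197 kept genes, with 1 residual degree of freedom per gene. Of the 6 members tested 0 passed at an adjusted p of 0.05, and 0% of all kept genes did, although 345 genes had an unadjusted p under 0.05. Flt1 had an estimate of -0.31 (SE 0.16), Vegfa of -0.30 (SE 0.16) and Angptl4 of 0.25 (SE 0.16), each with an adjusted p of 0.915 by limma. Vegfb stood at 0.17 (SE 0.15), Nrp1 at -0.14 (SE 0.15) and Nrp2 at -0.07 (SE 0.16), with adjusted p from 0.926 to 0.974 by limma. A p that misses the threshold does not show that these transcripts were unaffected by PTHrP.

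Other genes of the pathway were counted from lists written with earlier results of these arrays known, over the genes that are on the array. In the list of 6 other VEGF and angiopoietin ligands and receptors, 0 were 2-fold apart in either medium on the scaled log2 values. Over all genes 1.93% were at least 2-fold higher and 1.11% lower under PTHrP, and 1.65% and 1.31% in control medium. The signals themselves can lie further apart. Under PTHrP Flt4 read 40.0 in the R150C line against 14.8 in the WT line, and Angpt2 3.4 against 9.2. On the scaled values these were differences of 0.84 and -0.40. Both genes are below the filter and were named after their values were seen. In that list Vegfd, the remaining ligand of Flt4, was the only gene above the filter; it was picked after its values were seen, as were Hif1a and Sp1 below, and read 253.4 and 253.9 in the R150C line (PTHrP, carrier) against 358.9 and 288.8 in the WT line (PTHrP, control). Of 10 neuropilin partners, which include class A plexins and class 3 semaphorins, and of 4 other angiopoietin-like genes, 0 passed 2-fold in either medium. Above the filter were 6 of the 10 partners and 0 of the 4 angiopoietin-like genes. Of those 4, 2 never exceeded the highest Bacillus probe set of an array. Genes this dim can hardly reach 2-fold on this scale, so these counts too are only described, beside the same shares of all genes.

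Transcripts of the factors that sense oxygen and drive Vegfa in hypoxia, 6 of 10 above the filter, showed no 2-fold line difference in either medium, 0 of 10. Over all genes 1.93% were higher and 1.11% lower under PTHrP, and 1.65% and 1.31% in control medium. Protein levels and activity of these factors were not measured. Hif1a, the oxygen-regulated subunit, read 644.6 and 483.4 in the R150C line (PTHrP, carrier) against 520.0 and 610.4 in the WT line (PTHrP, control), with the lines overlapping. Of 28 HIF target genes 1 was at least 2-fold higher in both media and 0 lower, against 0.839% and 0.339% of all genes. Their median was 0.01 under PTHrP and 0.07 in control medium. The gene higher in both media was Hk2, a hexokinase, at 1.03 and 1.35 (PTHrP, control medium). Under PTHrP 3 of 28 were at least 2-fold higher, where 1.93% of all genes were. Beside Hk2 these were the glucose transporter gene Slc2a1 (1.11 and 0.66) and Slc16a3 (1.44 and 0.93, below the filter). In control medium 1 of 28 was, where 1.65% of all genes were, and 0 were lower in either medium. The glycolytic targets Pgk1 (-0.32 and -0.69) and Ldha (-0.23 and -0.24) lay on the lower side and Aldoa (0.19 and 0.55) on the higher. All but Hk2 were picked after their values were seen.

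Of 15 PPAR factors and PPAR targets, a group with Angptl4 as a known target, 0 were 2-fold apart in both media. Over all genes 0.839% were higher and 0.339% lower in both. In control medium alone 1 of 15 was at least 2-fold higher, where 1.65% of all genes were, and 0 were lower. Plin2, the lipid droplet protein gene, differed by -0.35 and 0.09 and Pdk4 by 0.06 and -0.14 (PTHrP, control medium), both named after their values were seen. Of 18 regulators of Vegfa transcription and mRNA 1 was at least 2-fold higher in both media and 1 lower, beside the same shares of all genes. Zfp36l2, which promotes decay of AU-rich mRNAs, was higher (1.53 and 1.58), and Egr1, an early growth response factor, was lower (-1.12 and -1.03). Sp1, whose family binds the GC box, read 133.3 and 100.6 in the R150C line against 168.6 and 152.5 in the WT line. Sp3, of the same family, read 81.0 and 62.9 in the R150C line against 79.2 and 142.8 in the WT line. The lines were level for Sp3 under PTHrP (0.01) and differed by -1.04 in control medium. Sp3 too was named after its values were seen.

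Of 20 other angiogenic growth factor genes 3 were at least 2-fold higher in both media and 0 lower. They were Ccn2 (3.76 and 3.65), Ccn1 (1.48 and 1.75), both matricellular proteins, and Pdgfb (1.59 and 1.62), a growth factor that recruits pericytes to vessels. Pdgfb read 212.8 and 190.1 in the R150C line (PTHrP, carrier) against 59.1 and 49.5 in the WT line (PTHrP, control). Of 13 angiogenesis inhibitors and matrix regulators 1 was lower in both media, the protease gene Adamts1 (-1.87 and -2.22), and 0 were higher in both. Thbs1, an inhibitor of vessel growth, differed by 1.64 under PTHrP and 0.75 in control medium, and is named after its values were seen. Over all genes 0.839% were higher and 0.339% lower in both media.

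**Figure D5:**
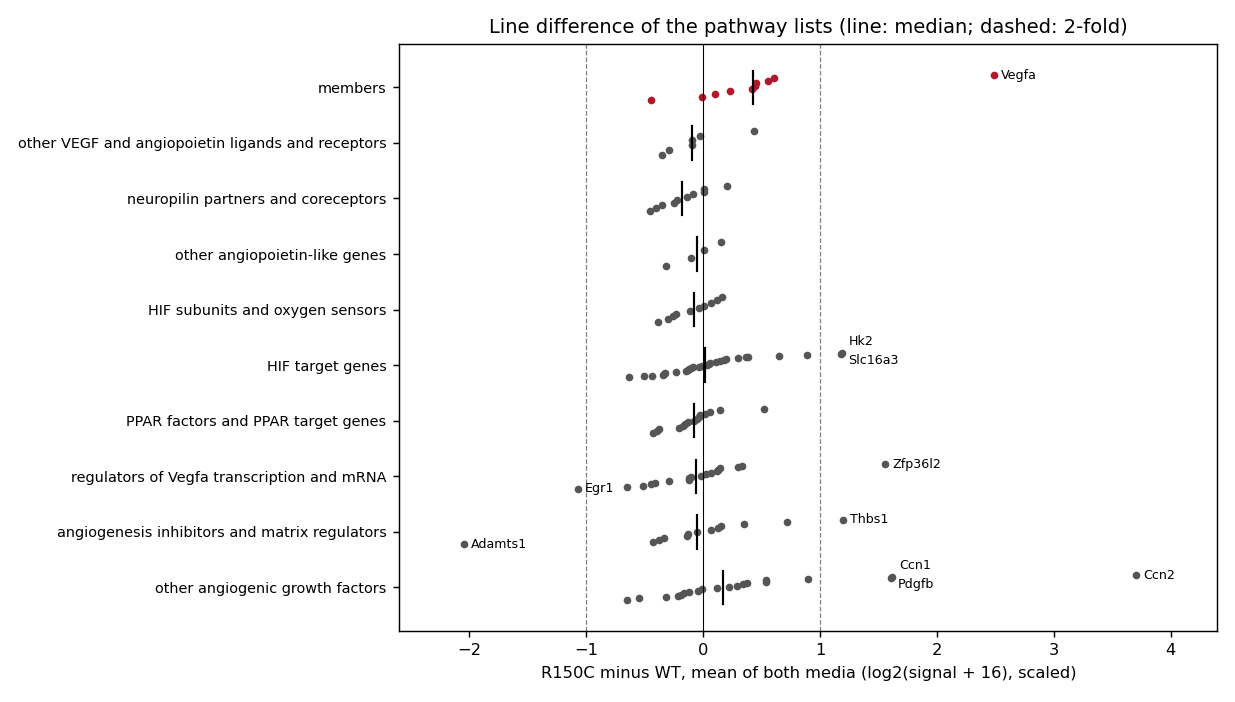
Mean of the line difference in both media (horizontal axis, R150C minus WT, scaled log2(signal + 16)) for the members (red) and for 9 lists of related genes (grey), with 1 point for each gene, a vertical black mark at each list's median and dashed lines at 2-fold. Genes past 2-fold on this mean are named, with Vegfa at 2.49, Ccn2 at 3.70 and Adamts1 at -2.05; HIF subunits and other VEGF family genes all lie inside the lines.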

How the data were processed

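RNA of 4 samples, 1 for each group, was hybridised to Mouse Genome 430A 2.0 arrays. The authors made the deposited intensity of each probe set in Expression Console (Affymetrix), per the submitters' processing notes, with a version and summarisation method not given in the sources used here. The mean after trimming 2% at each end was about 150.1 on each array, so the values carry a global scaling. Of 22690 probe sets 64 were controls, 20380 had 1 symbol, 691 several and 1555 none. The probe set with the highest mean of log2(signal + 16) stood for each of 12393 genes, and genes at or above the median of that mean (6197) were kept and centred to a median of 0 on each array. Symbols were updated through Entrez identifiers (20351 matched, GRCm38.p6). limma 3.58.1 (R 4.3.3) was fitted to all kept genes with Benjamini-Hochberg adjustment and tested on simulated data. Its p-values take their error from the departure from additivity of line and treatment, moderated over genes. A true difference in PTHrP response between the lines would thus count as error. Each of the 4 arrays is a single culture, so scatter between cultures was not measured. Centring on kept genes was preferred to the median of all probe sets, which leaves the kept genes shifted by 0.22 for PTHrP in the WT line. Alternatives were other scalings, pseudocounts of 1 and 64, the mean of a gene's probe sets and other filters. The rule for naming genes outside the members took those kept and at least 2-fold apart in both media, at most 4 a list, the largest first, plus the 5 nearest to Vegfa. Outside this rule, Vegfd, Flt4, Angpt2, Hif1a, Sp1, Sp3, Pgk1, Ldha, Aldoa, Slc2a1, Slc16a3, Plin2, Pdk4 and Thbs1 were named after their values were seen. So were the markers Col1a1, Pecam1, Cdh5, Eng and S1pr1. Members and lists were chosen with earlier results of these data known. Protein sequences were not used here.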

Additional observations from a re-analysis of the deposited data

Results flagged for a closer look

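The PTHrP difference had opposite signs in the lines for Kdr, Vegfc, Nrp2 and Angpt1, on 1 array per group. These were flagged on sign alone, whatever the size. The share of all genes with opposite signs was not counted, so nothing is read from how many members were flagged. The difference between the responses was not tested. The PTHrP difference of Kdr was -0.60 in the R150C line and 0.16 in the WT line, so that the responses differed by -0.76. The responses of Vegfc differed by -0.51, at signals within the background range, and those of Nrp2 by -0.48. For Angpt1 they differed by -0.10, at the floor of the array. The spread of such a difference of responses was 0.35 (SD) over the kept genes and 0.54 over those below the filter. For Nrp2 and Angpt1 the same numbers appear as line differences of opposite sign in the 2 media: -0.01 under PTHrP and 0.47 in control medium for Nrp2, and -0.06 and 0.04 for Angpt1, with the differences -0.48 and -0.10.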

How the results depend on the processing

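The difference of Vegfa between the lines stayed past 2-fold under each of 3 other scalings, pseudocounts of 1 and 64 and the mean of its probe sets, from 2.17 to 2.91 under PTHrP and from 1.87 to 2.45 in control medium. With a pseudocount of 1 the members at least 2-fold higher numbered 2 under PTHrP (Vegfa and Vegfc) and 3 in control medium (Vegfa, Vegfc and Kdr). No member passed limma's test for PTHrP under any scaling, pseudocount, filter or probe set rule run. Over all genes limma called 22 higher and 3 lower when centred on all probe sets, where the kept genes had a median of 0.22 in the WT line, and 1 higher without centring, against 0 otherwise; the smallest adjusted p ran from 9.36e-09 to 0.905. Signs that changed with a setting were those of Angptl4 and Nrp1 for PTHrP in the R150C line, of Flt1, Nrp1 and Angpt1 for PTHrP in the WT line, of Pgf and Angpt1 between the lines in control medium and of Nrp2 between the lines under PTHrP. Of these the widest range was that of Angpt1 in control medium, -0.01 to 0.41. Signals under about 26.4 are not separable from the Bacillus probe sets, which limits Vegfc, Pgf and Angpt1. No paired analysis was possible because each group has 1 array and the labels give no replicate numbers to pair cultures by; the limma fit compares PTHrP with control within the lines, with the line as a term. Leaving out an array was not run, since that fit would then have no residual degrees of freedom.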
